A study of Drosophila melanogaster with 24 samples.

Results

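The 7 genes described here encode transcription factors that specify motor neurons in Drosophila melanogaster: eve (even skipped), HGTX, exex (extra-extra), Lim3, tup (tailup), zfh1 and unc-4. They were picked by locus tag (Dmel_CG2328, Dmel_CG13475, Dmel_CG8254, Dmel_CG10699, Dmel_CG10619, Dmel_CG1322 and Dmel_CG6269, in the same order) and make up 7 of the 17545 genes in the count table. All 7 were found.

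RNA sequencing covered 24 libraries in 8 groups of 3. Groups crossed 2 treatments, 2 stages and 2 tissues. The treatments were larval food with 5 µM methylmercury chloride (MeHg), given from the first instar, and control food with the solvent only (DMSO at 0.01%). Tissue came from flies 15 days into adult life, which had been kept on MeHg-free food since eclosion, and from pupae 30 h after puparium formation. The tissues were the ventral nerve cord (VNC), which holds the cell bodies of the motor neurons, and the indirect flight muscles (IFM), the dorsal longitudinal and dorsoventral muscles that move the wings. Sexes were mixed, every library pooled tissue of 50 animals, and all animals were fixed in Methacarn, a mixture of methanol, chloroform and acetic acid, before dissection. The strain and its genotype are not given in the labels.

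Motor neurons of the fly take their identity from combinations of transcription factors. The homeodomain protein eve directs axons to dorsal muscles, while HGTX (the fly Nkx6), exex (the fly HB9) and the LIM-homeodomain proteins Lim3 and tup (the fly Islet) act in neurons that reach ventral muscles, and eve and the ventral factors repress each other. The zinc finger homeodomain protein zfh1 acts in motor neurons at large, where it promotes the exit of axons from the nerve cord, and also in muscle precursors, heart and blood cells, and the paired-like homeodomain protein unc-4 marks subsets of motor neurons and interneurons. MeHg is an organic mercury compound that is toxic to the developing nervous system, and the design asks whether larval exposure alters gene expression in nerve cord and flight muscle while the muscle forms and later in the adult.

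In the coordinates of the Release 6 assembly (dm6), eve lies on chromosome arm 2R at 9979319 to 9980795 on the plus strand. The LIM-homeodomain genes share chromosome arm 2L, with tup at 18859507 to 18881261 and Lim3 at 19079256 to 19108427, both on the minus strand. On 3L, exex spans 7948186 to 7951563 on the plus strand and HGTX spans 14583222 to 14599540 on the minus strand. The zfh1 gene is found on 3R at 30765926 to 30789202 and unc-4 on X at 17768569 to 17778708, both on the plus strand. Their exons, joined over all transcripts, cover between 1406 bases in eve and 6915 bases in zfh1. An antisense gene shares 235 exonic bases with eve and another shares 315 with zfh1. Neither antisense gene had more than 5 counts in any library, but whether counting used the strand is not given in the sources used here, so reads of such pairs cannot be told apart.

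Library totals ran from 12.41e6 to 39.25e6 counts. The neuron and flight muscle markers followed the labels. Neuron markers (8 genes) summed to between 5246 and 11632 CPM (counts scaled to a common library total) in the VNC libraries and between 90.2 and 245 CPM in the IFM libraries. Flight muscle markers (8 genes) summed to between 43486 and 80350 CPM in IFM. Fat body markers (4 genes) were high in both tissues. They summed to 3223 to 4449 CPM in adult VNC and 10094 to 19053 CPM in pupal VNC. In IFM they summed to 10287 to 21824 CPM in adults and 8572 to 20174 CPM in pupae. Replicate 2 of the MeHg pupal VNC stood apart, with the lowest total and with 345 CPM of the pan-neuronal gene elav, against 568 and 570 CPM in the other MeHg pupal VNC libraries and 541 to 603 CPM in the control ones. The adult IFM libraries differed widely among themselves in digestive enzyme transcripts, a matter that is taken up with exex, Lim3 and tup. All CPM here are TMM-scaled over the 24 libraries.

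Per length of exon, zfh1 was the most abundant of the 7 transcripts in every VNC group. It reached 14.04 ± 1.75 CPM per kb in adult MeHg VNC, 16.4 ± 0.462 in adult control VNC, 23.4 ± 0.894 in pupal MeHg VNC and 22.3 ± 0.943 in pupal control VNC (SD, n = 3 each). HGTX came second, between 10.2 and 12.1 CPM per kb as a group mean, although in pupal MeHg VNC its range overlapped that of unc-4. unc-4, Lim3 and tup followed with group means between 5.95 and 8.89 CPM per kb. Within this middle tier the ranges of neighbours overlapped in most VNC groups, so that the order of Lim3 and tup in pupae, and of unc-4 and tup in adults, did not exceed the spread between libraries. exex was next, at 1.83 to 3.57 CPM per kb, and eve came last at 0.429 to 1.03 CPM per kb. The ranges of tup and exex, and of exex and eve, were separate in all 4 VNC groups.

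**Figure D1:**
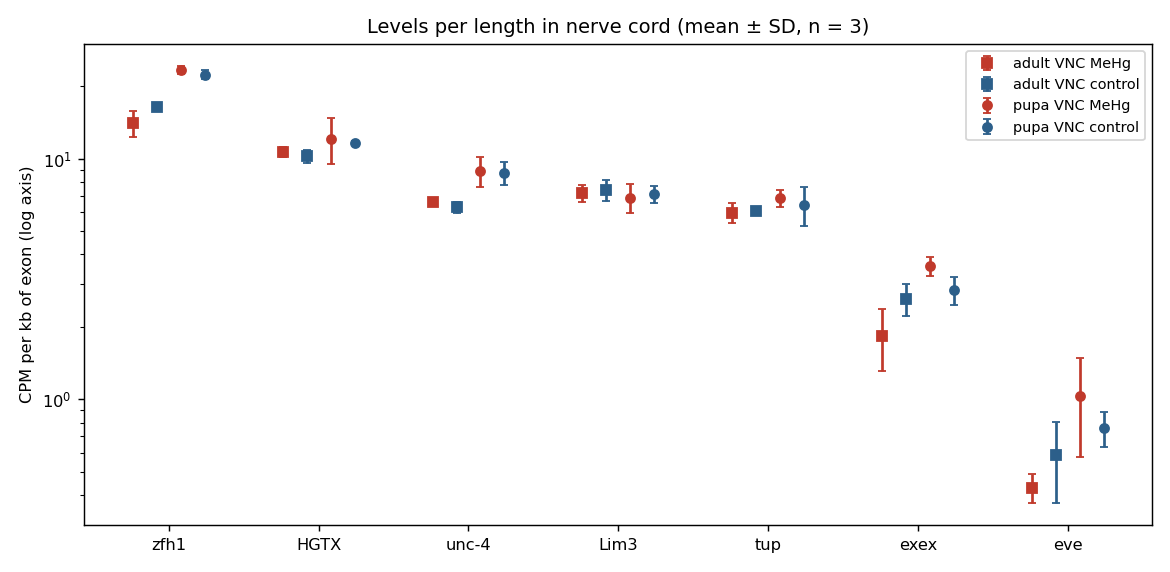
Levels of the 7 genes in ventral nerve cord in CPM per kb of exon on a log axis; squares are adult and circles pupal groups, red is MeHg and blue control, and bars are the SD over 3 libraries. zfh1 is the highest and eve the lowest in every group, and MeHg and control points of a stage lie close together.

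IFM gave another order. In pupal IFM, zfh1 (17.6 ± 1.58 CPM per kb in MeHg and 12.9 ± 1.79 in control libraries) and tup (5.50 ± 1.45 in MeHg and 3.88 ± 2.52 in control libraries) stood above the others, none of which had a group mean over 0.346 CPM per kb. In adult IFM, exex, Lim3 and tup joined zfh1, with group means from 3.796 to 13.0 CPM per kb, while HGTX, unc-4 and eve stayed at or under 0.316 CPM per kb. From tissue-level RNA, fewer cells of a type and less RNA per cell cannot be told apart.

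**Figure D2:**
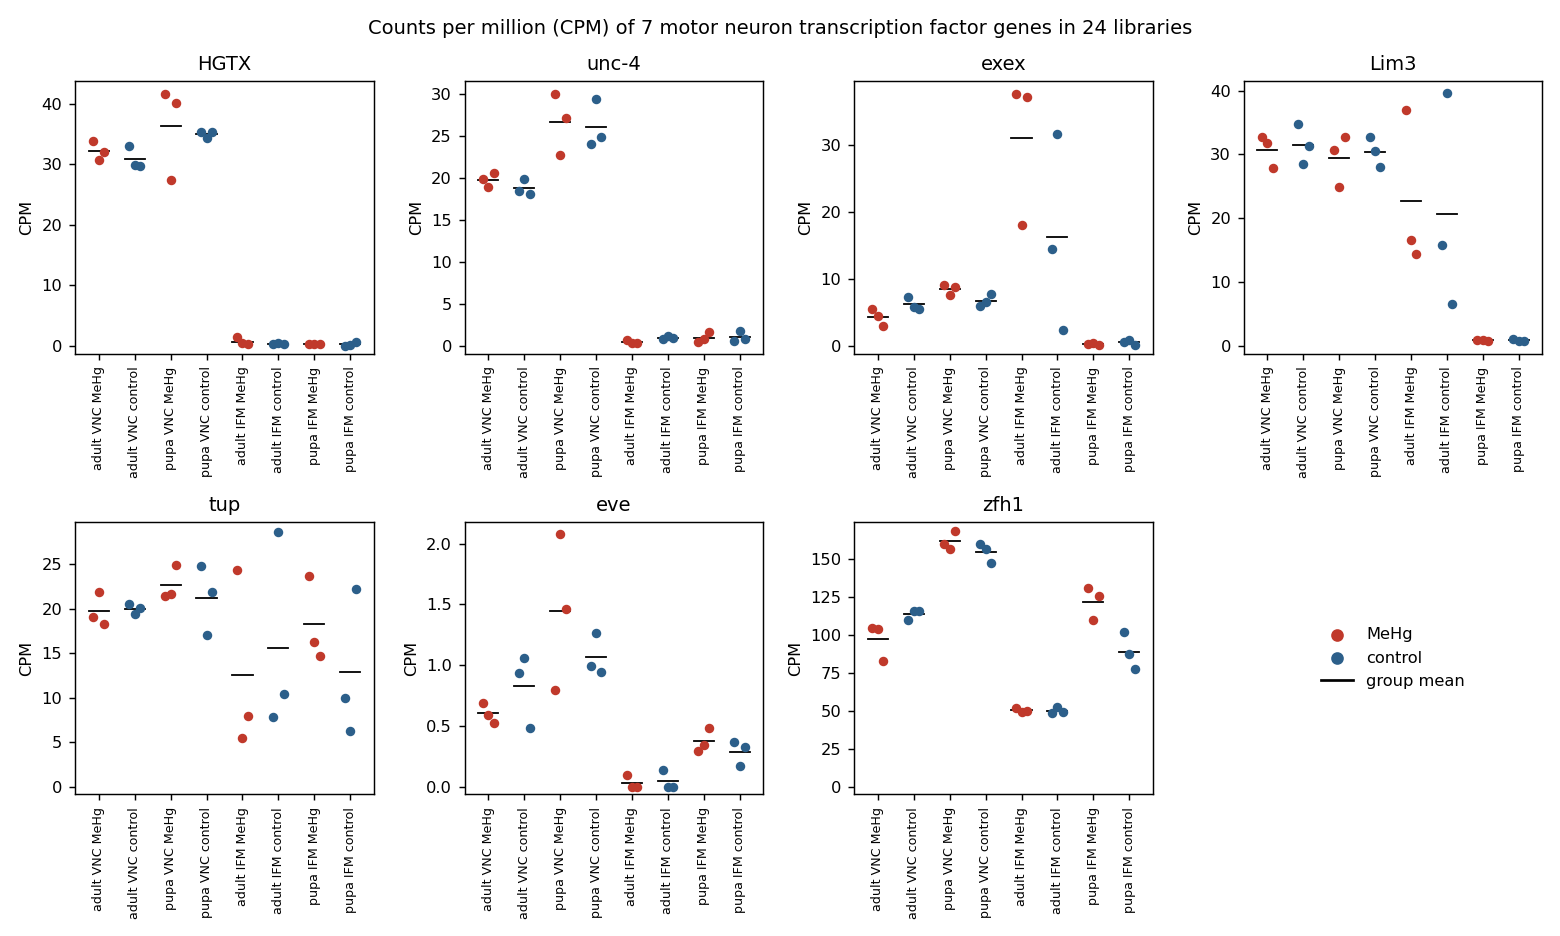
TMM-scaled CPM of each gene in the 24 libraries, 1 dot per library, with red for MeHg, blue for control and a black line at the group mean. HGTX and unc-4 are near 0 in IFM, in IFM, exex and Lim3 are near 0 in pupae and scattered in adults, and MeHg and control dots overlap in most pairs.

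The first comparison asked whether larval MeHg changed these genes in the nerve cord. In neither stage did a factor pass the test. For adult VNC the quasi-likelihood test of edgeR with Benjamini-Hochberg adjustment called 0 of the 7 genes at an adjusted p under 0.05, where 0.0674% of all 11870 genes tested were called. One member, exex, had an unadjusted p under 0.05, and DESeq2 called 0 of 7. For pupal VNC the same test called 0 of 7, against 0.531% of all genes, 0 members had an unadjusted p under 0.05, and DESeq2 called 0. The median log2 fold change (MeHg over control) of the 7 genes was 0.02 in adult VNC, beside 0.05 over all genes, and 0.08 in pupal VNC, beside 0.00 over all genes.

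The dorsal factor eve had 0.691, 0.592 and 0.526 CPM in the adult MeHg VNC libraries and 0.934, 1.06 and 0.483 CPM in the adult control ones. These groups overlapped, with a log2 fold change of -0.38 ± 0.41 (SE) and an adjusted p of 0.712. Pupal VNC had 0.799, 2.08 and 1.46 CPM of eve with MeHg and 0.989, 1.26 and 0.942 CPM in controls. The highest of these 6 values came from MeHg replicate 2, the library with the low elav level, and the log2 fold change of 0.44 ± 0.41 (adjusted p = 0.8) became 0.06 ± 0.43 without it.

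Among the ventral factors, HGTX had 33.8, 30.8 and 32.0 CPM in adult MeHg VNC and 33.0, 29.9 and 29.7 CPM in adult control VNC. The groups overlapped and the log2 fold change was 0.12 ± 0.13 (adjusted p = 0.716). Pupal VNC held 41.7, 27.3 and 40.1 CPM of HGTX with MeHg and 35.3, 34.3 and 35.4 CPM in controls. MeHg replicate 2 was the lowest of all 6 and the other MeHg libraries the highest, which left a log2 fold change of 0.07 ± 0.13 (adjusted p = 0.904) and one of 0.22 ± 0.09 (adjusted p = 0.489) without that replicate.

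exex was the ventral factor with the largest VNC differences, in opposite directions at the 2 stages. In adult VNC it had 5.53, 4.52 and 3.03 CPM with MeHg and 7.29, 5.85 and 5.51 CPM in controls. The highest MeHg library lay level with the lowest control library, and the log2 fold change of -0.46 ± 0.21 had an unadjusted p of 0.0487 and an adjusted p of 0.367. The lowest value was that of MeHg replicate 4, which alone among the adult VNC libraries carries the title tag 7_28 where the others carry 7_10. Without it the log2 fold change was -0.24 ± 0.18, and with the tag as a term in the fit it was -0.25 ± 0.19. In pupal VNC exex had 9.07, 7.63 and 8.77 CPM with MeHg and 6.01, 6.51 and 7.72 CPM in controls, for a log2 fold change of 0.35 ± 0.21 and an adjusted p of 0.664. The difference between the 2 MeHg effects was -0.81 ± 0.29 on the log2 scale, with an unadjusted p of 0.0181 and an adjusted p of 0.312.

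Digestive enzyme transcripts varied in the adult VNC beside exex. Trypsin alphaTry had 72.8, 2.96 and 1.955 CPM in the adult MeHg VNC libraries and 109, 96.9 and 51.7 CPM in the control ones, so that within each treatment the libraries ran in the same order for alphaTry as for exex. The forkhead factor fkh, known from gut and salivary gland, had 17.1, 14.1 and 8.77 CPM in adult MeHg VNC and 19.1, 13.6 and 13.5 CPM in adult control VNC. The part of these transcripts in the exex values was not tested.

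Lim3 and tup were level between treatments in the nerve cord. Lim3 had 32.7, 31.7 and 27.8 CPM in adult MeHg VNC and 34.8, 28.5 and 31.3 CPM in adult control VNC, with a log2 fold change of 0.02 ± 0.12 (adjusted p = 0.968). In pupae it had 30.7, 24.8 and 32.8 CPM with MeHg and 32.7, 30.6 and 27.97 CPM in controls, with a log2 fold change of -0.03 ± 0.12 (adjusted p = 0.954). Both pairs of groups overlapped. tup ran from 18.3 to 21.9 CPM in adult MeHg VNC and from 19.4 to 20.6 CPM in adult control VNC, and its log2 fold changes were 0.04 ± 0.12 in adults and 0.11 ± 0.12 in pupae.

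zfh1 had 104.4, 103.7 and 83.1 CPM in adult MeHg VNC and 110.04, 115.7 and 115.5 CPM in adult control VNC. Every MeHg library lay below every control library, yet the log2 fold change of -0.17 ± 0.09 had an adjusted p of 0.41. Here too replicate 4 was the lowest, and without it the value was -0.06 ± 0.08. Short transcripts were higher in the MeHg adult VNC, with a median log2 fold change of 0.14 among the shortest 10% of 7770 genes and 0.00 among the longest 10%, to which zfh1 belongs, and the part of this trend in the zfh1 value was not tested. In pupal VNC the 6 values of zfh1 ran from 147 to 169 CPM and the groups overlapped (log2 fold change 0.08 ± 0.09). unc-4 had a log2 fold change of 0.13 ± 0.12 in adult VNC and 0.04 ± 0.12 in pupal VNC, with overlapping groups both times.

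**Figure D3:**
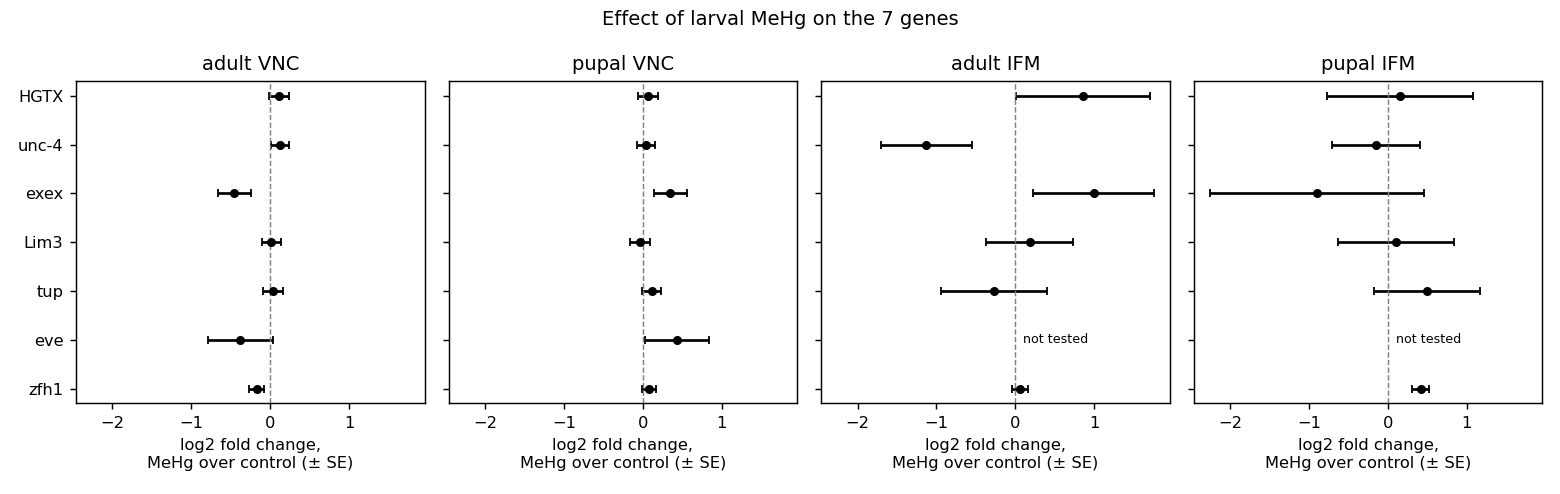
log2 fold changes of the 7 genes, MeHg over control, with their standard errors, in adult VNC, pupal VNC, adult IFM and pupal IFM. No value passed an adjusted p of 0.05; zfh1 in pupal IFM (0.42 ± 0.10) lies farthest from 0 relative to its error.

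The VNC levels were also set against elav. In adult VNC the elav ranges were themselves separate, at 316 to 321 CPM with MeHg and 262 to 294 CPM in controls, which lowers every MeHg ratio there, while the synapse gene brp ranged the other way, at 1163 to 1473 CPM with MeHg and 1555 to 1596 CPM in controls. In adult VNC, zfh1 came to 30.5 ± 3.62% of the elav level with MeHg and 40.6 ± 3.36% in controls, and exex to 1.37 ± 0.389% with MeHg and 2.21 ± 0.240% in controls (SD, n = 3 each). The ranges of both genes were separate between treatments on this scale. HGTX came to 10.1 ± 0.519% with MeHg and 11.003 ± 0.526% in controls, and its ranges overlapped. In pupal VNC the ratios lay the other way: exex came to 1.54 to 2.21% of elav with MeHg and 0.997 to 1.40% in controls, and HGTX to 7.04 to 7.93% with MeHg and 5.85 to 6.43% in controls, without overlap. In the pupal VNC library that stood apart, MeHg replicate 2, all 7 genes had a higher ratio to elav than in the other MeHg libraries, with zfh1 at 45.4% against 28.1% and 29.6%.

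In flight muscle the same comparison also called none of the genes, and eve was not tested there because it failed the filter on low counts. For adult IFM, edgeR called 0 of 6 members, against 7.6% of 11347 genes, with 0 at an unadjusted p under 0.05 and 0 by DESeq2. For pupal IFM it called 0 of 6, against 3.01% of all genes. One member, zfh1, had an unadjusted p under 0.05, and the same gene was called by DESeq2. The median log2 fold change of the 6 genes was 0.12 in adult IFM and 0.13 in pupal IFM, beside -0.01 and 0.00 over all genes.

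zfh1 came nearest to the threshold. Its levels were 130.6, 109.6 and 125 CPM in the MeHg pupal IFM libraries and 102.1, 87.1 and 77.6 CPM in the control ones. Every MeHg library lay above every control library, also among the libraries titled 7_1 (replicate 1) and among those titled 7_7 (replicates 2 and 3). The log2 fold change was 0.42 ± 0.10, with an unadjusted p of 0.00212 and an adjusted p of 0.0584. DESeq2 gave 0.42 with an adjusted p of 0.00877, and edgeR over all 24 libraries gave 0.45 with an adjusted p of 0.00999. Over the alternatives run, the adjusted p of zfh1 ranged up to 0.189, without MeHg replicate 1. In adult IFM zfh1 had 51.5, 49.4 and 50.0 CPM with MeHg and 48.4, 52.2 and 49.2 CPM in controls, which overlapped (log2 fold change 0.06 ± 0.11). The difference between the adult and the pupal MeHg effect was -0.36 ± 0.15 (adjusted p = 0.21).

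Other measures moved beside zfh1 in pupal IFM. Markers of muscle precursors (7 genes, all detected) summed to 2445 to 3049 CPM in MeHg and 1650 to 2331 CPM in control libraries, without overlap. Within that list 3 genes separated: the myoblast fusion gene sns had 444 to 777 CPM with MeHg and 121 to 246 CPM in controls, vg had 294 to 392.2 CPM with MeHg and 193 to 275 CPM in controls, and ct had 64.3 to 85.6 CPM with MeHg and 40.6 to 57.9 CPM in controls. Mef2 overlapped, with means of 1559 CPM with MeHg and 1274 CPM in controls. Markers of heart and pericardial cells (6 genes, 1 of them at 0 in a control library) summed to 26.7 to 32.9 CPM in MeHg and 13.7 to 17.0 CPM in control libraries, again without overlap. Of these genes only prc and mid separated, with means of 13.9 and 10.8 CPM with MeHg and 7.27 and 5.48 CPM in controls. The others overlapped, and Hand averaged 0.965 CPM with MeHg and 1.21 CPM in controls. The haemocyte list (7 genes) overlapped, at 118 to 159 CPM in MeHg and 97.7 to 130 CPM in control libraries, and of its genes Hml and NimC1 were separate and higher with MeHg, the other 5 overlapped, and Sr-CI averaged 7.43 CPM with MeHg and 9.87 CPM in controls. Trachea markers (4 genes) summed to 44.9 to 52.5 CPM in MeHg and 37.5 to 42.7 CPM in control libraries, without overlap. The glia list (7 genes) overlapped, at 225 to 278 CPM in MeHg and 218 to 273 CPM in control libraries. Of its genes repo was separate, at 13.3 to 18.4 CPM in MeHg and 11.2 to 12.2 CPM in control libraries. Its most abundant genes averaged lower with MeHg, Gs2 at 84.3 CPM against 95.9 CPM in controls and nrv2 at 95.9 CPM against 107 CPM. Neuron markers overlapped, at 197 to 245 CPM in MeHg and 149 to 223 CPM in control libraries. Long transcripts were also higher in the MeHg pupal IFM: over 7281 genes of at least 5 CPM, the median log2 fold change was -0.23 among the shortest 10% and 0.20 among the longest 10%, and zfh1 belongs to the longest 10%. The part of these measures in the zfh1 difference was not tested.

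The remaining factors of pupal IFM were low or scattered. tup had 23.7, 16.3 and 14.7 CPM with MeHg and 9.98, 6.29 and 22.2 CPM in controls, overlapping, with a log2 fold change of 0.49 ± 0.67. Background knowledge places tup also in the dorsal thorax epidermis, next to which the flight muscles attach. Lim3 (0.692 to 1.09 CPM), exex (0.0728 to 0.843 CPM), HGTX (0 to 0.583 CPM) and unc-4 (0.498 to 1.74 CPM) were at low levels in all 6 libraries. In adult IFM, unc-4 had 0.649, 0.286 and 0.330 CPM with MeHg and 0.795, 1.17 and 0.879 CPM in controls, from 31 counts in all in the MeHg and 76 in the control libraries. The groups did not overlap, and the log2 fold change of -1.13 ± 0.58 had an adjusted p of 0.263.

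exex, Lim3 and tup were expressed in adult IFM at levels that differed more between libraries than between treatments. exex had 37.7, 18.1 and 37.3 CPM in the MeHg libraries (replicates 1, 3 and 4) and 14.5, 31.8 and 2.43 CPM in the control libraries (replicates 1, 2 and 3). The groups overlapped, and the log2 fold change of 0.99 ± 0.77 had an adjusted p of 0.48. With the replicate number as a block, which uses only numbers 1 and 3 as pairs, it was 2.04 ± 0.35 with an adjusted p of 0.0249. Without control replicate 2 the value was 1.92 and without control replicate 3 it was 0.48, neither of them past the threshold.

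Lim3 had 37.0, 16.6 and 14.4 CPM in adult MeHg IFM and 15.8, 39.6 and 6.58 CPM in adult control IFM. tup had 24.3, 5.46 and 7.95 CPM with MeHg and 7.88, 28.6 and 10.4 CPM in controls. Both genes were highest in MeHg replicate 1 and control replicate 2 and overlapped fully between treatments, with log2 fold changes of 0.18 ± 0.55 for Lim3 and -0.27 ± 0.67 for tup.

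These libraries also held transcripts of the gut and of the corpora cardiaca, the neurosecretory gland beside the foregut. A list of 11 digestive enzyme genes, chosen after the values were seen, summed to 8246 to 15600 CPM in adult MeHg IFM and 1199 to 9428 CPM in adult control IFM, with all 11 above 0 in all 6 libraries. The trypsin alphaTry had 2600.3, 1556 and 1601 CPM with MeHg and 856, 1690.1 and 137 CPM in controls. Adipokinetic hormone (Akh), made in the corpora cardiaca, had 33.7, 22.4 and 19.0 CPM with MeHg and 3.73, 45.4 and 1.65 CPM in controls. The gut and brain peptide gene Tk had 30.2, 18.6 and 14.8 CPM with MeHg and 8.29, 18.3 and 1.83 CPM in controls.

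Control replicate 3 was the lowest library for exex and Lim3 and also for alphaTry, Akh and Tk. MeHg replicate 1 and control replicate 2 were the highest for Lim3, tup and Akh. In pupal IFM, where exex and Lim3 were near 0, alphaTry did not exceed 0.747 CPM and the enzyme list summed to 177 to 228 CPM in MeHg and 175 to 237 CPM in control libraries. Nearly all of that was LManII, an alpha-mannosidase gene with 173 to 228 CPM in MeHg and 172 to 237 CPM in control libraries, and no other gene of the list exceeded 1.24 CPM in pupal IFM. Neuron markers also varied between the adult IFM libraries. VGlut had 19.6, 8.89 and 8.61 CPM with MeHg and 23.6, 17.2 and 12.7 CPM in controls, so that among the MeHg libraries replicate 1 was the highest for VGlut as for Lim3 and tup, and among the controls replicate 3 was the lowest as for Lim3 and exex, but replicate 1 and not 2 was the highest. elav had 37.7, 40.4 and 36.7 CPM in adult MeHg IFM and 41.7, 30.9 and 35.0 CPM in adult control IFM. HGTX and unc-4, which mark motor neurons as well, did not exceed 1.39 CPM in any of these 6 libraries. The part of gut, gland or neuronal RNA in the levels of exex, Lim3 and tup was not tested.

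**Figure D4:**
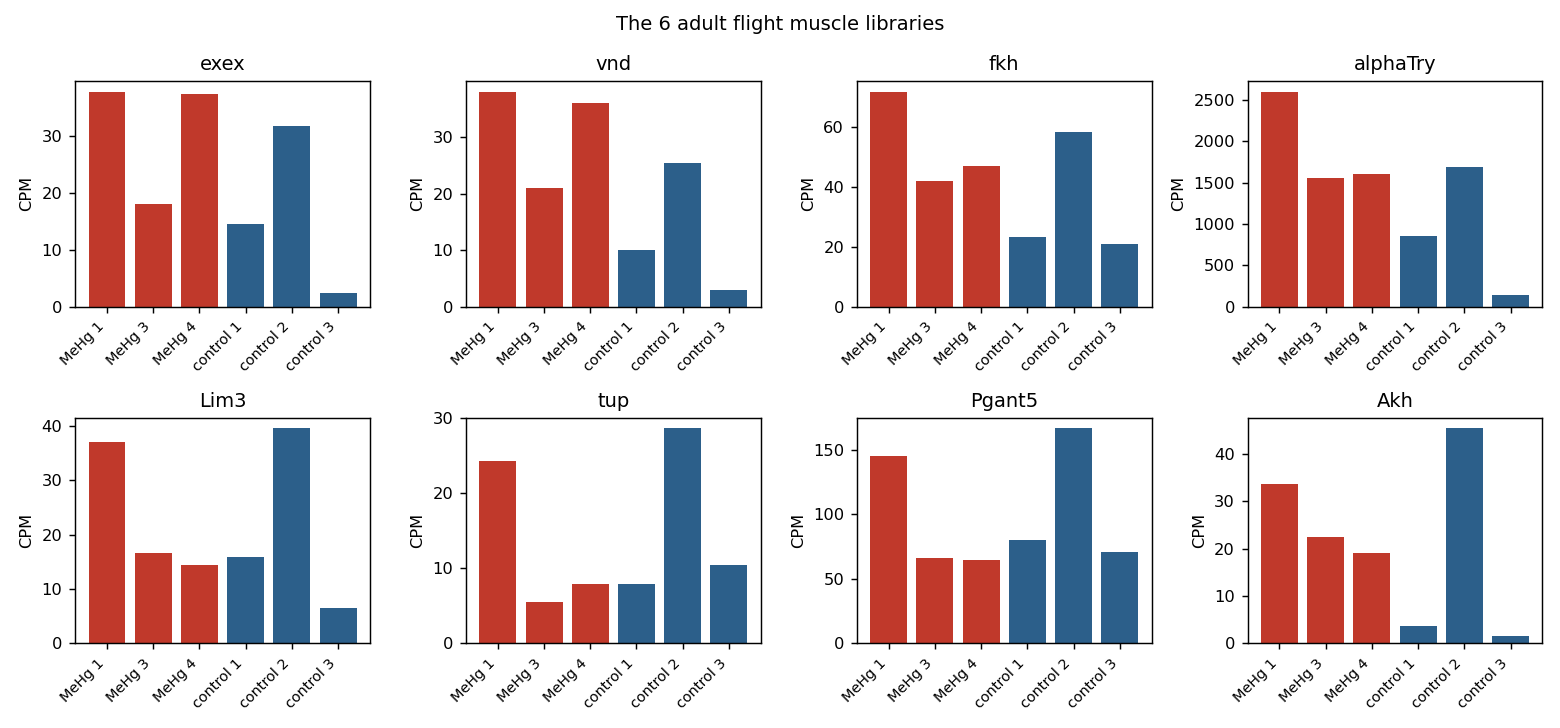
CPM of exex, Lim3 and tup in the 6 adult flight muscle libraries (bars, red for MeHg and blue for control, replicate numbers on the axis) beside vnd and fkh, close to exex over the 24 libraries, Pgant5, close to tup, and the gut and gland genes alphaTry and Akh. Control replicate 3 is lowest for exex, Lim3, alphaTry and Akh, and control replicate 2 is highest for Lim3, tup, Pgant5 and Akh.

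Between the stages, zfh1 and unc-4 were lower in adult than in pupal nerve cord. In MeHg VNC, edgeR called 4 of the 7 genes, all lower in adults, where 66.1% of all genes were called and 31.8% called lower. In control VNC it called 2 of 7, both lower, against 64.3% called and 32.6% called lower over all genes. zfh1 fell to 97.1 ± 12.1 CPM in adult MeHg VNC, against 161.7 ± 6.18 CPM in pupal MeHg VNC (SD, n = 3 each), a log2 fold change of -0.73 ± 0.09 (adjusted p = 1.87e-05). In controls zfh1 had 113.7 ± 3.20 CPM in adults and 154 ± 6.52 CPM in pupae, a log2 fold change of -0.48 ± 0.09 (adjusted p = 0.000539). Adult and pupal libraries did not overlap in either treatment.

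unc-4 had 19.8, 18.9 and 20.6 CPM in adult MeHg VNC and 30.1, 22.7 and 27.2 CPM in pupal MeHg VNC. In controls it had 18.5, 19.9 and 18.1 CPM in adults and 24.05, 29.4 and 24.9 CPM in pupae. The stages did not overlap in either treatment, and unc-4 fell by 0.43 ± 0.12 with MeHg (adjusted p = 0.00585) and by 0.52 ± 0.12 in controls (adjusted p = 0.00192) on the log2 scale. With all 24 libraries in the edgeR fit both calls were lost, at -0.432 with MeHg (adjusted p = 0.185) and -0.471 in controls (adjusted p = 0.15).

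exex and eve fell in the MeHg nerve cord, where their control counterparts did not pass the test. exex had 4.36 ± 1.25 CPM in adult and 8.49 ± 0.757 CPM in pupal MeHg VNC (log2 fold change -0.96 ± 0.21, adjusted p = 0.0015), and 6.21 ± 0.945 CPM in adult and 6.75 ± 0.876 CPM in pupal control VNC (-0.16 ± 0.21, adjusted p = 0.513). With all 24 libraries in the edgeR fit, the exex call in MeHg VNC was lost (-0.965 ± 0.578, adjusted p = 0.162). eve had 0.603 ± 0.0827 CPM in adult and 1.45 ± 0.639 CPM in pupal MeHg VNC (-1.24 ± 0.42, adjusted p = 0.0204), and 0.826 ± 0.304 CPM in adult and 1.06 ± 0.174 CPM in pupal control VNC (-0.43 ± 0.41, adjusted p = 0.375). The test of the difference itself passed for neither gene: it gave an adjusted p of 0.312 for exex and -0.82 ± 0.58 with an adjusted p of 0.517 for eve. Without pupal MeHg replicate 2 the eve difference between stages was -0.86 ± 0.43 and lost its call (adjusted p = 0.0988), which it also did without adult MeHg replicate 3 (-1.23, adjusted p = 0.06) or 4 (-1.15, adjusted p = 0.0709). The eve call was lost as well with the replicate block (-0.899, adjusted p = 0.132) and with all 24 libraries (-1.244, adjusted p = 0.155) in edgeR.

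Lim3, tup and HGTX were not called between the stages of the nerve cord. Lim3 averaged 30.7 CPM in adult MeHg, 31.5 in adult control, 29.4 in pupal MeHg and 30.4 in pupal control VNC, and its log2 fold changes between stages were 0.06 ± 0.12 with MeHg and 0.01 ± 0.12 in controls. HGTX had stage differences of -0.18 ± 0.13 with MeHg and -0.22 ± 0.13 in controls, and in controls its adult and pupal ranges were separate. With only the compared groups in the fit, HGTX was called lower in adult control VNC (-0.22 ± 0.06, adjusted p = 0.0104). Without pupal MeHg replicate 2, HGTX was called lower in adult MeHg VNC (-0.32 ± 0.09, adjusted p = 0.00912). elav itself was lower in adults, by 1.05 ± 0.14 on the log2 scale in controls (adjusted p = 5.08e-05), and all 7 genes had a higher mean ratio to elav in adult than in pupal control VNC. Most other neuron genes went the other way from elav. Of 11 transmitter and synapse genes, 9 were higher in adult control VNC and 2, elav and fne, were lower. nSyb averaged 1379 CPM in adults and 712 CPM in pupae, and VGlut 1939 and 407 CPM. Ratios to these genes were not taken, so the rise holds for elav as the reference only. In MeHg VNC the mean ratio to elav was lower in adults for eve (0.189% in adults and 0.333% in pupae), exex (1.37% in adults and 1.78% in pupae) and zfh1 (30.5% in adults and 34.4% in pupae). The adult and pupal ranges overlapped for each of these genes. The pupal means of eve and zfh1 include MeHg replicate 2, at 0.602% and 45.4%. In the other pupal MeHg libraries eve had 0.141% and 0.257%, and zfh1 28.1% and 29.6%, below its adult mean.

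In flight muscle exex and Lim3 differed by far more between the stages. edgeR called 3 of 6 members in MeHg IFM, against 75.6% of all genes, and 3 of 6 in control IFM, against 74.4%. exex rose by 7.01 ± 1.11 on the log2 scale in MeHg IFM (adjusted p = 0.000232) and by 5.12 ± 1.03 in control IFM (adjusted p = 0.0012). Lim3 rose by 4.71 ± 0.68 in MeHg IFM (adjusted p = 9.92e-05) and by 4.63 ± 0.69 in control IFM (adjusted p = 0.000129). The adult libraries behind these values are those with digestive enzyme and Akh transcripts. zfh1 fell by 1.17 ± 0.11 in MeHg and by 0.81 ± 0.11 in control IFM, to 50.3 ± 1.12 CPM in adult MeHg IFM against 121.8 ± 10.9 CPM in pupal MeHg IFM, and to 49.9 ± 2.01 CPM in adult control IFM against 89.0 ± 12.4 CPM in pupal control IFM. Precursor markers were lower at the same time, at 539 to 643 CPM in adult MeHg IFM and 2445 to 3049 CPM in pupal MeHg IFM. In control IFM they summed to 612 to 761 CPM in adults and 1650 to 2331 CPM in pupae. Of these genes Mef2 averaged 373 CPM in adult and 1274 CPM in pupal control IFM, and vg 225 and 237 CPM. Haemocyte markers were higher in adults, at 851 to 1011 CPM against 118 to 159 CPM in pupae with MeHg. In controls they had 1005 to 1717 CPM in adults and 97.7 to 130 CPM in pupae. The part of these measures in the fall of zfh1 was not tested. tup, HGTX and unc-4 passed the test in neither treatment.

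Set against flight muscle, the pupal nerve cord held more of nearly all of the factors. In pupae, 6 of 7 genes were called higher in VNC than in IFM under MeHg, against 59.2% of 12631 genes called and 32.7% called higher, and the same number in controls, against 60.0% called and 34.1% called higher. The uncalled gene was tup both times, with a log2 fold change (VNC over IFM) of 0.32 ± 0.50 under MeHg and 0.71 ± 0.50 in controls. HGTX showed the widest gap, 6.99 ± 0.48 under MeHg and 6.95 ± 0.49 in controls. Lim3 differed by 5.00 ± 0.52 under MeHg and 5.18 ± 0.54 in controls. For unc-4 the difference was 4.76 ± 0.34 under MeHg and 4.67 ± 0.35 in controls, and for exex it was 5.05 ± 0.79 under MeHg and 3.85 ± 0.74 in controls. Of the called genes zfh1 differed least, by 0.41 ± 0.10 under MeHg and 0.80 ± 0.10 in controls.

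eve was scarce enough for its counts to be given. Pooled over 3 libraries, pupal MeHg VNC had 108 counts and pupal MeHg IFM 25, a ratio of 3.42 after scaling (exact 95% interval 2.20 to 5.51), and pupal control VNC had 109 against 18 in pupal control IFM, a ratio of 3.69 (2.23 to 6.46). Adult MeHg VNC had 69 counts and adult MeHg IFM 2, a ratio of 23.1 (6.17 to 195), and adult control VNC had 94 against 4, a ratio of 16.5 (6.25 to 61.9). These intervals cover counting error only. The fitted eve differences of pupae (1.94 ± 0.77 under MeHg, adjusted p = 0.0356, and 1.88 ± 0.78 in controls, adjusted p = 0.0438) lost their calls in a large part of the alternatives.

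In adults, 4 of the 7 genes were higher in VNC and 1 was lower, in both treatments, against 71.8% of all genes called under MeHg (37.0% higher and 34.8% lower) and 73.0% in controls (38.0% higher and 35.0% lower). HGTX (5.603 ± 0.43 under MeHg and 6.32 ± 0.46 in controls), unc-4 (5.58 ± 0.37 under MeHg and 4.32 ± 0.34 in controls), eve (4.27 ± 0.97 under MeHg and 3.99 ± 0.90 in controls) and zfh1 (0.95 ± 0.10 under MeHg and 1.19 ± 0.10 in controls) were higher. exex was the one lower in VNC, with a log2 fold change of -2.83 ± 0.60 under MeHg (adjusted p = 0.000327) and -1.38 ± 0.57 in controls (adjusted p = 0.0376). Its VNC and IFM libraries were separate under MeHg and overlapped in controls. There the call was lost without IFM replicate 2 (-0.44 ± 0.54, adjusted p = 0.472), without IFM replicate 1 (-1.46, adjusted p = 0.0509) and without VNC replicate 2 or 3 (-1.48 in both, adjusted p = 0.063 and 0.0626). It was also lost with the replicate block (-1.12, adjusted p = 0.0791), with no filter (adjusted p = 0.0525), with the title tag (adjusted p = 0.0503) and with only the groups compared (adjusted p = 0.184). Lim3 (0.44 ± 0.41 under MeHg and 0.62 ± 0.41 in controls) and tup (0.66 ± 0.50 under MeHg and 0.36 ± 0.50 in controls) were not called in either treatment. Without adult MeHg IFM replicate 1, both were called higher in MeHg VNC, Lim3 by 0.99 ± 0.42 and tup by 1.56 ± 0.49, and without adult control IFM replicate 2 Lim3 was called higher in control VNC, by 1.496 ± 0.34.

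**Figure D5:**
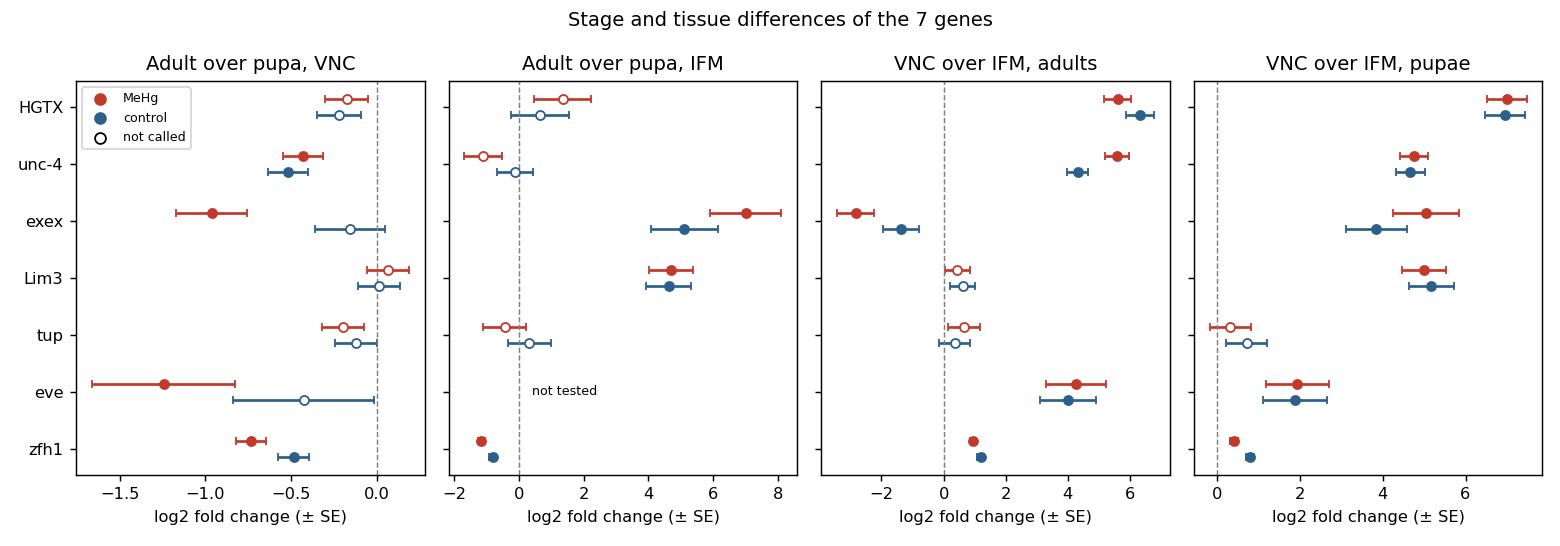
log2 fold changes with standard errors for adult over pupa in VNC and in IFM and for VNC over IFM in adults and in pupae; red is MeHg, blue is control, filled points passed an adjusted p of 0.05 and open points did not. exex lies above 5 in the adult over pupa panel of IFM and below 0 in the VNC over IFM panel of adults.

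Whether stage acted differently in the tissues was tested in controls as an interaction (the stage effect in VNC minus that in IFM). edgeR called 3 of 7 genes, against 53.0% of all genes: Lim3 at -4.56 ± 0.67 (adjusted p = 9.85e-06), exex at -5.23 ± 0.94 (adjusted p = 0.000111) and zfh1 at 0.39 ± 0.14 (adjusted p = 0.0228). The zfh1 call was lost without any 1 of 5 control libraries (adult IFM replicate 1 or 3, pupal IFM replicate 1, and adult or pupal VNC replicate 3), with an adjusted p of up to 0.104. For MeHg by tissue and MeHg by stage, 0 members were called in every case, against 3.38% of all genes for MeHg by tissue in adults, 0.245% in pupae, 2.69% for MeHg by stage in IFM and 0.00842% in VNC. One member had an unadjusted p under 0.05 in each of the 4: unc-4 for tissue in adults (1.26 ± 0.49, adjusted p = 0.159), zfh1 for tissue in pupae (-0.39 ± 0.14, adjusted p = 0.316), zfh1 for stage in IFM and exex for stage in VNC. DESeq2 called 0 members for these interactions as well.

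The genes whose log2(CPM + 1) over the 24 libraries most resembled each factor were found among 6122 genes. The coefficients are Pearson's r over libraries that share 2 tissues and 2 stages, and they describe the pattern only. HGTX was closest to the neuropeptide receptor gene PK2-R1 (r = 0.997), hwt (0.995) and spas, which encodes the microtubule-severing protein spastin (0.994), and unc-4 to beat-Vc, a beaten path family member (0.993), cmpy (0.993) and CARPA (0.992). zfh1 was closest to MED1 (0.977), to the runt factor gene run (0.976) and to the dioxygenase gene Tet (0.976), and eve to Sk2 (0.93), HLH4C (0.93) and Bgb (0.929). Lim3 went with the FGF gene pyr (0.98), sfl (0.974) and the tachykinin receptor gene TkR99D (0.97).

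exex stood with Pgant6, a sugar transferase of O-linked glycosylation (0.954), and with the transcription factors vnd (0.951) and fkh (0.944), and tup with Pgant5, another such transferase (0.896), lute (0.769) and alphaCOP (0.735). vnd had 38.0, 21.0 and 36.1 CPM in adult MeHg IFM and 9.99, 25.5 and 2.99 CPM in adult control IFM, the same order of libraries as exex within each treatment. Pgant5 had 145, 66.2 and 64.2 CPM in adult MeHg IFM and 79.7, 166 and 70.9 CPM in adult control IFM, with the same 2 libraries on top as tup. Both vnd and Pgant5 were picked for likeness over libraries that include these, so the shared order follows in part from that choice. Over the 12 VNC libraries alone the closest genes were others: DIP-lambda for HGTX (0.938), MtnB for unc-4 (0.947), sbb for zfh1 (0.993), MFS14 for exex (0.909) with fkh next (0.895), Gnf1 for eve (0.893), ksh for tup (0.845) and PDZ-GEF for Lim3 (0.836).

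Partner factors of motor neuron specification formed a list of 25 genes. For MeHg, edgeR called 0 of 23 tested in adult VNC and 0 of 23 in pupal VNC, with a median log2 fold change of 0.05 and 0.03, and 0 of 21 in adult IFM, with a median of -0.19. At an unadjusted p under 0.05 these comparisons had 3, 2 and 3 genes of the list, and DESeq2 called 0, 0 and 2. In pupal IFM 1 of 21 was called, against 3.01% of all genes, with a median of 0.30 beside 0.00 over all genes, 6 at an unadjusted p under 0.05 and 2 called by DESeq2. The gene edgeR called was Antp: this thoracic Hox gene had 23.7 ± 2.62 CPM with MeHg and 13.1 ± 2.43 CPM in controls (log2 fold change 0.83 ± 0.16, adjusted p = 0.0173). Of the temporal and neuroblast factors (15 genes, 12 of them tested in IFM), svp, an orphan nuclear receptor, was higher in MeHg pupal IFM (0.58 ± 0.14, adjusted p = 0.0489) and mira, an adaptor for fate determinants, in MeHg adult IFM (1.69 ± 0.34, adjusted p = 0.0163), while 0 of 15 were called by edgeR or DESeq2 in either VNC comparison, with 1 at an unadjusted p under 0.05 in each. The list had 3 genes at an unadjusted p under 0.05 in pupal IFM and 5 in adult IFM, with 1 called by DESeq2 in each.

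Axon guidance and adhesion genes of motor neurons (14 genes) were not called by edgeR or DESeq2 in either VNC comparison of MeHg, with 1 at an unadjusted p under 0.05 in adults and 0 in pupae. In adult IFM edgeR called 3 of 14 (7.6% of all genes) and DESeq2 5, with 8 at an unadjusted p under 0.05, and in pupal IFM each called 1 of 14 (3.01% of all genes), with 3 at an unadjusted p under 0.05. The netrin receptor gene unc-5 was lower in MeHg adult IFM (3.73 ± 0.730 CPM with MeHg and 10.8 ± 2.85 CPM in controls, adjusted p = 0.00434). Fas2, a cell adhesion molecule of motor axons and muscle, was higher with MeHg in adult IFM (0.47 ± 0.08, adjusted p = 0.0102) and in pupal IFM (0.35 ± 0.08, adjusted p = 0.0475), and the second netrin receptor gene, fra, was higher in adult IFM (1.18 ± 0.26, adjusted p = 0.0234). Of 10 genes of the BMP pathway that signals from muscle to motor neuron, trio, a Rac exchange factor, was higher in MeHg pupal IFM (0.40 ± 0.08, adjusted p = 0.031), the 1 call of edgeR there, beside 4 by DESeq2, 6 at an unadjusted p under 0.05, a median of 0.27 and 3.01% of all genes called. In the other 3 MeHg comparisons edgeR called 0 of the list: adult VNC had 3 genes at an unadjusted p under 0.05 and 0 calls by DESeq2, pupal VNC had 1 and 1, and adult IFM had 2 and 2. Transmitter and synapse genes (11) had 0 calls by edgeR and by DESeq2 in all 4, with 2 at an unadjusted p under 0.05 in adult VNC and 0 in the others. In pupal IFM, long transcripts were higher with MeHg at large, with a median log2 fold change of 0.20 among the longest 10% and -0.23 among the shortest 10%. The part of this trend in the pupal IFM list medians, and in the pupal IFM calls of Antp, svp, Fas2 and trio, was not tested. In adult IFM the 11 digestive enzyme genes summed to 8246 to 15600 CPM with MeHg and 1199 to 9428 CPM in controls, overlapping. MeHg replicate 4 also carries another title tag there, and with the tag fitted the calls over all genes fell from 862 to 81. Whether mira, unc-5, Fas2 and fra kept their adult IFM calls in that fit is not given here. The part of digestive tissue RNA in those calls was not tested.

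Between the stages of the control nerve cord these lists separated. Over all genes 64.3% were called and 32.6% called lower in adults. Of the 14 guidance genes, 12 were lower in adults and 1 was higher, with a median log2 fold change of -1.07 beside 0.05 over all genes. The adhesion gene Nrt had 114.7 ± 1.24 CPM in adult and 1015 ± 70.1 CPM in pupal control VNC, and fra had 83.3 ± 0.989 CPM in adults and 395 ± 16.1 CPM in pupae. Of the 11 transmitter genes, 9 were higher in adults and 2 (fne and elav) lower, with a median of 1.19. Gad1, which makes GABA, had 1582 ± 65.2 CPM in adult and 85.0 ± 5.96 CPM in pupal control VNC, and VGlut, the glutamate transporter of motor neurons, 1939 ± 183 CPM in adults and 407 ± 35.8 CPM in pupae.

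Of the 23 partner factors tested, 13 were lower in adult control VNC and 4 were higher (32.6% of all genes called lower and 64.3% called in all), with a median of -0.45. Dr, a homeodomain factor of dorsal neuroblasts, fell by 1.20 ± 0.08, the basic helix-loop-helix gene Oli fell by 0.99 ± 0.09, the LIM-homeodomain gene Awh fell by 2.27 ± 0.24 and Chi, the cofactor of LIM-homeodomain proteins, fell by 0.67 ± 0.09. In MeHg VNC 12 were lower and 4 higher (31.8% of all genes called lower and 66.1% called in all), with a median of -0.61. Of the 15 temporal factors, 8 were lower and 2 higher in adult control VNC, with grh at -2.84 ± 0.23, and in the BMP list 5 were lower and 2 higher of 10, twit, a BMP target gene of motor neurons, rising by 2.11 ± 0.12. The stage values of the 7 motor neuron factors in control VNC lay between -0.52 for unc-4 and 0.01 for Lim3.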

How the data were processed

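Counts per gene, whole numbers for 17545 genes in 24 libraries, were used as the authors deposited them. Per the submitters' processing notes the tools were bcl2fastq 2.19.0, STAR 2.7.6a, Subread 2.0.1 and featureCounts, on dm6; strand settings are not given in the sources used here. The kit (TruSeq Stranded Total RNA Gold) keeps the strand, per the labels' protocols. Locus tags gave symbols through RefSeq (Release 6 plus ISO1 MT), and Ensembl's annotation of that release gave exon lengths. No 2 libraries of a group were identical. Whether the pools of a group came from separate cultures is not stated, so p-values measure the spread between these samples.

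Tests used edgeR 4.0.16 in R 4.3.3 (quasi-likelihood F test, TMM scaling, filterByExpr, robust dispersion), with p-values adjusted after Benjamini-Hochberg across each fit's genes and a threshold of 0.05. Fits for MeHg and stage used the 12 libraries of a tissue (11347 genes in IFM, 11870 in VNC), and those for tissue and its interactions all 24 (12631 genes). Errors (±) are standard errors for log2 fold changes and SDs for levels. The members and gene lists were chosen with earlier results of these data known. Besides the 7 genes, the text names at most 4 called genes per list and comparison (smallest adjusted p), a set of markers (elav, nSyb, VGlut, twi, Mef2, repo and Hml), and the 3 genes most like each member. The genes alphaTry, Akh, Tk, LManII, brp, fne, sns, vg, ct, NimC1, Sr-CI, srp, Pxn, Gs2, nrv2, prc, mid and Hand were chosen after the values were seen. Alternatives were RLE scaling, no filter, DESeq2 1.42.0, a replicate block, the title tag as a batch, all 24 libraries, only the groups compared, and each library left out. The fit was tested on simulated data.

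Adult MeHg libraries are numbered 1, 3 and 4 and all other groups 1, 2 and 3. The labels do not say that a number marks a shared batch. Deviations of same-numbered libraries from their group means correlated above 0.1 in all 3 pairs in 2 comparisons, the stage effect in control VNC (0.224, 0.554 and 0.18) and the tissue effect in MeHg pupae (0.252, 0.15 and 0.516). Such correlations do not establish a pairing, and no title tag is shared between pupae and adults. The main fits did not pair libraries, so their errors and p-values are unpaired.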

Additional observations from a re-analysis of the deposited data

Results flagged for a closer look

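Stage effects in controls differed between the tissues for 3 genes by the interaction test of edgeR on all 24 libraries, with Benjamini-Hochberg adjustment. The stage effect (adult over pupa, log2) in VNC minus that in IFM was -4.56 for Lim3 (adjusted p = 9.85e-06), whose CPM was level in VNC and higher in adult IFM in 3 of 3 libraries. For exex the difference was -5.226 (adjusted p = 0.000111), again with all 3 adult IFM libraries above all pupal ones. For zfh1 it was 0.391 (adjusted p = 0.0228): this gene was lower in adults in both tissues and more so in IFM. No group of 4 or more libraries exists in the design, so single libraries were not screened for outliers.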

How the results depend on the processing

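Of the alternatives, those that moved the count of members called by over 1.5 times were few. In MeHg pupal IFM the count was 1 with DESeq2 and 1 with all 24 libraries (zfh1, main 0), and in MeHg adult IFM it was 1 with the replicate block (exex, main 0). With all 24 libraries the stage effect called 5 members in MeHg IFM (main 3), 1 in MeHg VNC (main 4) and 1 in control VNC (main 2). The member still called in VNC was zfh1 in both treatments. The block changed no call in the 2 comparisons where all same-numbered libraries deviated alike from their group means, and no call changed sign. Leaving out each library gave 0 members called in all MeHg effects and interactions with MeHg, 3 to 4 for stage in MeHg VNC, 2 in control VNC, 3 in IFM of both treatments, 5 to 6 for tissue in pupae of both treatments, 5 to 7 in MeHg adults, 4 to 5 in control adults and 2 to 4 for stage by tissue. The zfh1 interaction in controls lost its call without a filter (0.36, adjusted p = 0.0528) and without adult IFM replicate 1 or 3, pupal IFM replicate 1, or VNC replicate 3 of either stage (0.27 to 0.37). Calls over all genes for MeHg were 341 in pupal IFM (155 with the block, 927 with DESeq2), 862 in adult IFM (81 with the title tag, 1498 with DESeq2), 63 in pupal VNC (0 with only the groups compared, 222 with DESeq2) and 8 in adult VNC (274 with DESeq2). The title tag could not be fitted beside stage, since no tag occurs at both stages. Low counts, as for eve, for HGTX and unc-4 in IFM and for exex in pupal IFM, limit what could be detected.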
